A study of Homo sapiens with 12 samples.

Results

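The epidermal growth factor (EGF) receptors and their ligands were followed at the RNA level in 9 genes: the receptors EGFR, ERBB2 and ERBB3, the ligands AREG, EREG, HBEGF, TGFA and NRG1, and the receptor inhibitor ERRFI1. They were taken from the deposited tables by symbol, on chromosomes 1 to 22 and X, and each is represented by the transcript model with the most fragments over all libraries. They are 9 of the 26415 gene symbols used, and all 9 were among the 15669 genes tested. AREG and EREG passed the filter on low counts through PC3 alone, and NRG1 through MG63 alone. The libraries came from PC3, a human prostate carcinoma line, and MG63, a human osteosarcoma line. Lipofectamine RNAiMAX delivered 10 nM siRNA to each line: a control without a target (siControl), an siRNA against LARP4A (siLARP4A, listed in the tables under the symbol LARP4) or an siRNA against LARP4B (siLARP4B). Poly(A) RNA was taken after 72 h from 2 biological replicates per group, 12 libraries in all. The labels used here do not give the siRNA sequences or how many were used per target, so an effect of a target's loss and an effect of its siRNA on other transcripts cannot be told apart.

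EGFR and its relatives are receptor tyrosine kinases that pair when a ligand binds and then start the RAS and PI3K cascades. AREG, EREG, HBEGF and TGFA are ligands of EGFR that are made as membrane-bound precursors and cut loose by proteases of the ADAM family. NRG1 is a ligand of ERBB3 and ERBB4, ERBB2 has no known ligand of its own, and ERBB3 signals mainly through its partners. ERRFI1 (also called MIG6) binds the active receptor kinases, inhibits them and is itself switched on by their signalling. The proteins LARP4A and LARP4B belong to one family and attach to messenger RNA, LARP4A through its poly(A) tail and LARP4B through AU-rich stretches of 3′ untranslated regions.

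Library totals ran from 16950119 to 24864977 fragments. The targeted gene was reduced in each knockdown: LARP4 fell by 3.01 in PC3 and by 1.94 in MG63 on the log2 scale after siLARP4A, and LARP4B fell by 2.48 and 1.69 after siLARP4B (edgeR, adjusted p of at most 3.4e-14 for LARP4 and 2.1e-13 for LARP4B). LARP4 itself was higher by 0.44 (log2) in MG63 after siLARP4B. The summed level of 8 epithelial markers was 1113 to 1429 FPKM (fragments per kilobase of model scaled to library size) in PC3 and 64.1 to 87.0 in MG63, where EPCAM, CDH1 and CLDN7 were all under 0.1. That of 10 mesenchymal and osteoblastic markers was 33.2 to 47.9 in PC3 and 2928 to 3913 in MG63. Of the 8 epithelial markers 7 were higher in PC3 siControl than in MG63 siControl, KRT7 being the exception (6.33 against 14.5 FPKM). Of the 10 mesenchymal and osteoblastic markers 9 were higher in MG63, the exception being RUNX2, low in both (0.159 FPKM against 0.260 in PC3). The 2 libraries of each group differed by more than counting error, and unevenly. The chi-square per degree of freedom was 6.28 in PC3 siLARP4A and 5.03 in MG63 siLARP4B, and 1.63 to 2.57 in the other groups. The fit shares its estimate of the spread over all groups and does not reflect this unevenness.

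EREG and AREG lie next to each other on chromosome 4 of GRCh38, on the plus strand, with 56388 bases and no listed gene between them. Their promoters are shown because both genes had at most 1 fragment in each MG63 library and were lower in PC3 after siLARP4B. The 100 bases before each start site are given below, 5′ to 3′ from RefSeq (GRCh38.p14), for EREG at chr4:74365045-74365144 and for AREG at chr4:74445036-74445135. Capitals mark the TATA box letters TATAAA in both and the cyclic AMP response element TGACGTCA in AREG.
EREG: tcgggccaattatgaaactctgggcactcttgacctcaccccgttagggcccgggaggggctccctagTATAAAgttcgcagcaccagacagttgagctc
AREG: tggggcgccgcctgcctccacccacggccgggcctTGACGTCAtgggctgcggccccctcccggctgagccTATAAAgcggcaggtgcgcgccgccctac
In AREG the TGACGTCA letters begin 65 bases and the TATAAA letters 29 bases before the start site; in EREG TATAAA begins 32 bases before it. Among 34961 RefSeq promoter windows of 300 bases searched on both strands, 1.85% held TGACGTCA and 11.5% held TATAAA. The AP-1 letters TGANTCA, found in 7.68% of the windows, were not in the window of either gene, and the HBEGF and TGFA windows at the start sites of their models held none of the 3 motifs. These matches describe the letters only.

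In its 3′ untranslated region each ligand held more of the AU-rich motif ATTTA per kilobase than the median region, AREG and EREG by the most. In the transcripts of GENCODE release 29 with the longest such region, AREG held 14.9 ATTTA per kilobase, more than 99.8% of 13300 regions, whose median was 1.68. The AREG region is short, with 4 motifs in 269 bases, beside a median length of 1379 bases over all regions. EREG had 20 motifs in 3943 bases. EREG held 5.07, TGFA 3.63, HBEGF 3.43 and NRG1 3.37 per kilobase, more than 91.9%, 81.2%, 78.7% and 78% of the regions. The longer AU-rich letters TTATTTATT occurred 1 time each in EREG and TGFA, and not in AREG, HBEGF or NRG1. Of regions of like length, 17.5% hold them for EREG and 16.1% for TGFA. EGFR held 1.5, ERBB3 1.38, and ERBB2 and ERRFI1 none. The densest 28 bases of the 4 EGFR ligands are shown 5′ to 3′ on GRCh38, with ATTTA in capitals, at chr4:74454938-74454965 (AREG), chr4:74387369-74387396 (EREG), chr5:140333652-140333679 (HBEGF, minus strand) and chr2:70447474-70447501 (TGFA, minus strand).
AREG: taaataATTTATTTAatATTTAatggaa
EREG: cATTTAtttcATTTAcaaaagATTTAtt
HBEGF: tgtatgttaATTTATTTAgtttttaaca
TGFA: ttaatATTTAatgttttaATTTAttttg
Whether the motif bears on the responses below was not tested.

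The 2 lines had different ligands before any knockdown. Of all tested genes, 81.8% differed between PC3 and MG63 in siControl. AREG, EREG and NRG1, each of which passed the filter through 1 line alone, had to differ, and no count over the 9 genes is read here. AREG had 1553 and 1640 fragments in the PC3 siControl libraries and 0 in both of MG63, so it was at least 1070-fold higher in PC3, taking 3 fragments over the group as the limit that a count of 0 allows (counting error only). EREG had 31 and 43 fragments in PC3 siControl and 1 and 0 in MG63, a ratio of 74.4 with a 95% exact counting interval of 12.9 to 2976. TGFA was higher in PC3 by 5.25 (log2, SE 0.18), ERBB3 by 3.63 (SE 0.21) and ERRFI1 by 2.62 (SE 0.053). NRG1 was lower in PC3, with a log2 difference of -3.94 and 4 fragments in each PC3 siControl library and 55 and 59 in MG63. EGFR, ERBB2 and HBEGF were present in both lines and lower in PC3, with log2 differences of -0.35, -0.91 and -0.41. PC3 carried AREG, TGFA, HBEGF and some ERBB3, and MG63 carried mainly HBEGF among the 4 EGFR ligands, with little ERBB3. Line, medium and culture cannot be told apart in this comparison.

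**Figure D1:**
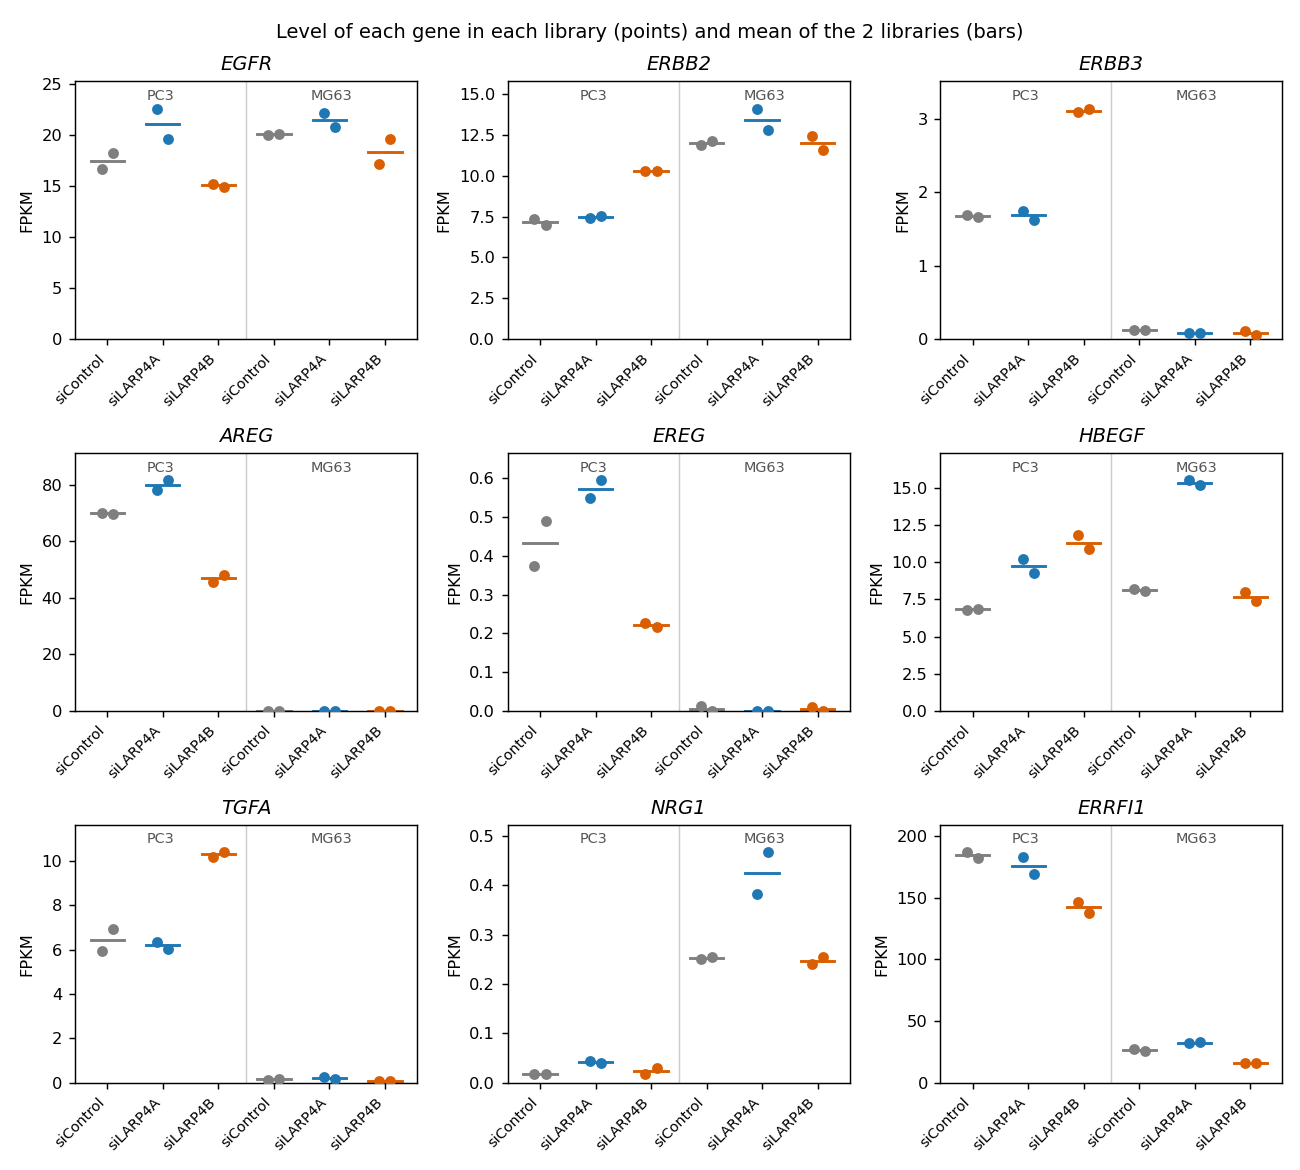
FPKM of the 9 genes (y axis, from 0, a scale for each gene) in the 12 libraries by siRNA group, PC3 on the left and MG63 on the right of each panel. Points are libraries and bars the mean of 2; AREG, EREG, TGFA and ERBB3 are near 0 in MG63, HBEGF is highest in MG63 after siLARP4A, and ERRFI1 is lowest within each line after siLARP4B.

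After siLARP4B in PC3 the family changed widely and in both directions. Of the 9 genes 8 passed the test (edgeR quasi-likelihood F-test, adjusted p under 0.05, adjusted over all tested genes), against 44.7% of all tested genes: ERBB2, ERBB3, HBEGF and TGFA were higher and EGFR, AREG, EREG and ERRFI1 lower. Over all genes 21.3% were higher and 23.4% lower. Those shares include weakly expressed genes and were not matched for level, here and in the other comparisons. The calls of EGFR and EREG were lost under some alternatives, as given below. The median size of the log2 change was 0.62 over the 9 genes and 0.28 over all tested genes. In MG63, siLARP4B changed 1 of the 9, ERRFI1, which fell; the background there was 35.1% (18.8% higher, 16.3% lower), and the median size was 0.10 over the 7 genes with a ratio against 0.23 over all genes.

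After siLARP4A every call among the 9 genes was upward. In PC3 3 of 9 rose (EGFR, AREG and HBEGF), a share of 33.3% beside a background of 36.0% (17.0% higher, 19.0% lower), so no higher than over all genes. In MG63 4 of 9 rose (ERBB2, HBEGF, NRG1 and ERRFI1), a share of 44.4% beside 26.4% (14.5% higher, 11.9% lower). The calls of AREG in PC3 and of ERBB2 and NRG1 in MG63 were lost under some alternatives, as given below. The direction does not extend to the whole family. Of 5 other members tested, 3 rose and 2 fell in PC3, and 1 rose and 1 fell in MG63. AREG and EREG, with at most 1 fragment in any MG63 library, were measured there without a usable ratio. Both siRNAs are compared with the same siControl libraries in each line, so their comparisons are not independent of each other. The RNA was taken from whole cultures, in which fewer cells with a transcript and less of it per cell cannot be told apart.

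**Figure D2:**
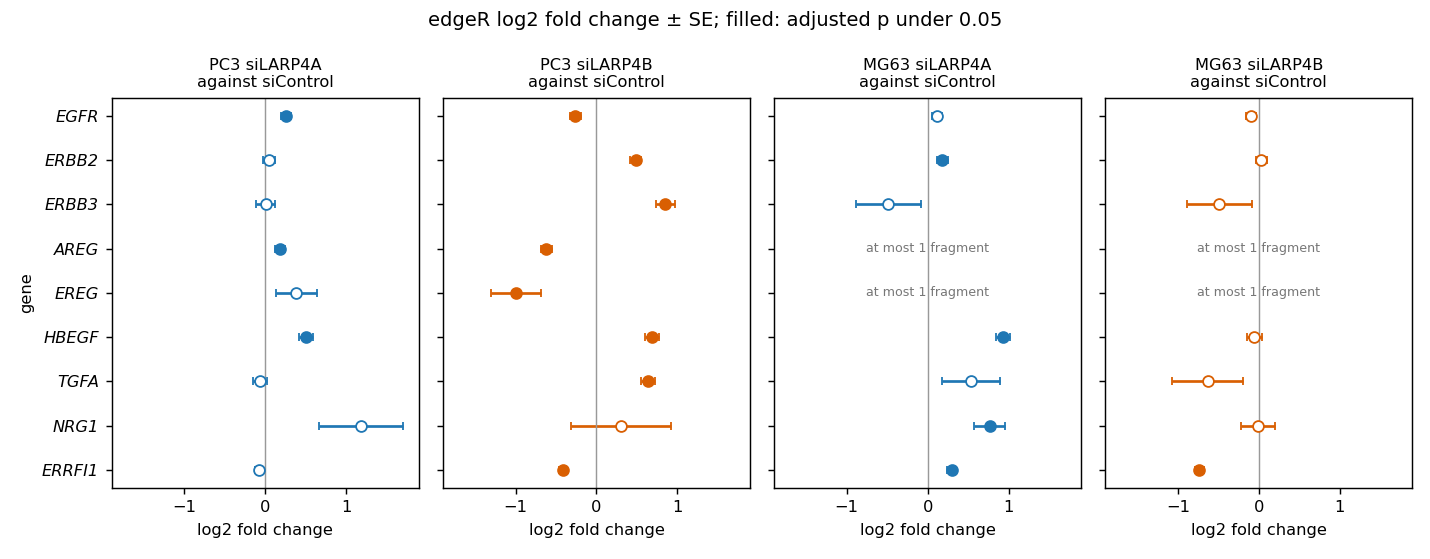
Log2 fold change against siControl (x axis) with its standard error for each gene, in the 4 comparisons; filled points have an adjusted p under 0.05. In PC3 after siLARP4B 4 genes lie to the right and 4 to the left of 0 among the filled points, and in MG63 only ERRFI1 is filled after siLARP4B.

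Among the receptors, EGFR moved little. In PC3 it stood at 16.7 and 18.3 FPKM in siControl, 22.6 and 19.6 after siLARP4A, and 15.2 and 14.9 after siLARP4B. Each knockdown lay outside the siControl range, above it after siLARP4A and below it after siLARP4B. The change was 0.26 (log2, SE 0.064, adjusted p = 0.0029 by edgeR) after siLARP4A and -0.26 (SE 0.066, adjusted p = 0.0024) after siLARP4B. The fall was no longer called by limma on log2(FPKM + 1) (-0.21, adjusted p = 0.054), without PC3 siControl replicate 2 (-0.17, adjusted p = 0.11 by edgeR) or without PC3 siLARP4B replicate 2 (-0.21, adjusted p = 0.061). In MG63 EGFR was at 20.0 and 20.1 FPKM in siControl, 22.2 and 20.8 after siLARP4A, and 17.2 and 19.6 after siLARP4B, with log2 changes of 0.12 and -0.10 that did not pass (edgeR, adjusted p = 0.2 and 0.26). Without MG63 siLARP4B replicate 2 the latter was -0.20 and passed (edgeR, adjusted p = 0.039). An antisense gene, EGFR-AS1, overlaps the EGFR model over 9200 bases, with 831 fragments over the 12 libraries beside 43120 for EGFR.

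ERBB2, the partner that other receptors prefer, rose in PC3 after siLARP4B. Its level was 7.33 and 6.98 FPKM in siControl, 7.39 and 7.51 after siLARP4A, and 10.3 in both libraries after siLARP4B. The siLARP4B libraries stood clear of the other 4, a change of 0.48 (log2, 1.4-fold, SE 0.071, adjusted p = 7.1e-06 by edgeR). In MG63 it was at 11.9 and 12.1 FPKM in siControl, 14.1 and 12.8 after siLARP4A, and 12.4 and 11.6 after siLARP4B. The rise after siLARP4A in MG63 was small (0.18, SE 0.065, adjusted p = 0.043 by edgeR) and was lost under 13 of 21 alternatives. Those included DESeq2 (0.17, adjusted p = 0.14) and leaving out any 1 of 7 libraries (both PC3 siControl, both PC3 siLARP4B, both MG63 siControl, or MG63 siLARP4A replicate 1), which gave 0.10 to 0.18 with adjusted p by edgeR of 0.076 to 0.43. MIEN1, on the opposite strand, shares 159 bases with the ERBB2 model and had 6186 fragments beside 10872. Its own log2 change was 0.09 (adjusted p = 0.41 by edgeR) in PC3 after siLARP4B. Over the 31 ERBB2 models the change there was 0.49 to 0.59 (log2 ratio of scaled fragments).

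ERBB3, a receptor with a weak kinase that recruits PI3K, rose in PC3 after siLARP4B as well. On the kept models its log2 value was the largest of the 3 receptors. Over the 2 ERBB3 models the change was 0.46 to 0.89 (log2 ratio of scaled fragments). The lower value lies under the 0.49 to 0.59 of the ERBB2 models, so size and rank depend on the model. In PC3 it was at 1.69 and 1.66 FPKM in siControl, 1.75 and 1.62 after siLARP4A, and 3.09 and 3.14 after siLARP4B. Control and siLARP4A libraries overlapped, and the siLARP4B libraries were far above both. The log2 change after siLARP4B was 0.85 (1.8-fold, SE 0.12, adjusted p = 3.4e-06 by edgeR); after siLARP4A it was 0.00 (SE 0.12). In MG63 the gene had 12 and 13 fragments in siControl, 8 and 9 after siLARP4A, and 12 and 6 after siLARP4B, too few to resolve a change (log2 -0.49, SE 0.4, in each).

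The make-up of the receptor RNA shifted accordingly in PC3. EGFR was 66.5% ± 2.08 (SD, n = 2) of the summed FPKM of EGFR, ERBB2 and ERBB3 in siControl and 52.9% ± 0.507 after siLARP4B. ERBB2 went from 27.2% ± 1.81 to 36.2% ± 0.277, and ERBB3 from 6.36% ± 0.262 to 10.9% ± 0.230. The sum itself was 26.4 FPKM ± 0.852 and 28.5 ± 0.235. In MG63 EGFR held 60.3% to 62.4% of the receptor RNA in the mean of each of the 3 groups. With 2 libraries a side an exact test on a single share cannot reach 0.05, so these shares are described only.

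Of the ligands, AREG (amphiregulin) was the most abundant in PC3. Its level was 70.1 and 69.8 FPKM in siControl, 78.0 and 81.5 after siLARP4A, and 45.6 and 48.1 after siLARP4B. The 3 groups did not overlap, with siLARP4A highest and siLARP4B lowest. AREG fell to 65.0% of its control level after siLARP4B (log2 -0.62, SE 0.066, adjusted p = 1.6e-07 by edgeR), and this held in all 21 alternatives, with values from -0.63 to -0.55. The rise after siLARP4A was small (0.18, SE 0.062, adjusted p = 0.031). It did not pass with DESeq2 (0.19, adjusted p = 0.1) or, with edgeR, without PC3 siControl replicate 1 (0.22, adjusted p = 0.055) or replicate 2 (0.19, adjusted p = 0.09).

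EREG (epiregulin), the neighbour of AREG and a ligand of EGFR and ERBB4, was low but showed the same order of groups. Its fragments in PC3 were 31 and 43 in siControl, 63 and 52 after siLARP4A, and 20 and 17 after siLARP4B. In FPKM, siControl was at 0.374 and 0.489, siLARP4A at 0.549 and 0.594, and siLARP4B at 0.226 and 0.217, with no overlap. EREG fell after siLARP4B by 1.00 on the log2 scale (SE 0.31, adjusted p = 0.013 by edgeR). That call rests on few fragments: it was lost with DESeq2 (-0.99, adjusted p = 0.17), and with edgeR without PC3 siControl replicate 2 (-0.77, adjusted p = 0.14) or without siLARP4B replicate 1 (-0.99, adjusted p = 0.074) or 2 (-0.94, adjusted p = 0.076). The change after siLARP4A was 0.38 (SE 0.25) and did not pass (edgeR, adjusted p = 0.26).

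Because EREG changed by a log2 value of 1 or more, the genes most like it over the 12 libraries were looked up among 2177 genes with a mean of at least 5 FPKM in some group and an SD of at least 0.3. After each gene was centred on its mean in each line, the highest Pearson r were 0.88 for CDCA2, 0.87 for MCM10 and 0.87 for TUBA1B. CDCA2 stood at a mean of 6.28, 7.69 and 3.08 FPKM in PC3 (siControl, siLARP4A, siLARP4B), MCM10 at 2.86, 3.31 and 1.04, and TUBA1B at 1047, 1396 and 714. The likeness rests on the PC3 libraries, since EREG is near 0 in MG63, and it describes these libraries only.

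HBEGF (heparin-binding EGF-like growth factor) was the ligand that rose in most comparisons. In PC3 it was at 6.80 and 6.88 FPKM in siControl, 10.2 and 9.28 after siLARP4A, and 11.8 and 10.9 after siLARP4B. In MG63 it was at 8.23 and 8.04 in siControl, 15.5 and 15.2 after siLARP4A, and 7.99 and 7.37 after siLARP4B. Both knockdowns raised it above every control library in PC3, whereas in MG63 siLARP4A libraries were far above the rest and siLARP4B libraries just under the controls. The log2 change was 0.50 (1.42-fold, SE 0.086, adjusted p = 7.8e-05 by edgeR) after siLARP4A and 0.69 (1.61-fold, SE 0.086, adjusted p = 8.9e-07) after siLARP4B in PC3. It was 0.93 (1.91-fold, SE 0.081, adjusted p = 1.5e-08) after siLARP4A in MG63. After siLARP4B in MG63 it was -0.05 (SE 0.088, adjusted p = 0.69 by edgeR). The 3 rises held in all 21 alternatives.

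TGFA (transforming growth factor alpha) was at 5.95 and 6.94 FPKM in PC3 siControl, 6.35 and 6.05 after siLARP4A, and 10.2 and 10.4 after siLARP4B. The siLARP4A libraries lay within the control range and the siLARP4B libraries well above it. TGFA rose by 0.63 (log2, 1.55-fold, SE 0.085, adjusted p = 2.2e-06 by edgeR) after siLARP4B, in all 21 alternatives too. In MG63 it had 10 and 13 fragments in siControl, 19 and 13 after siLARP4A, and 8 and 7 after siLARP4B. The MG63 groups barely separated, and neither change passed against siControl (0.54, SE 0.36, and -0.63, SE 0.44).

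NRG1 (neuregulin 1) was low in both lines. MG63 gave 55 and 59 fragments in siControl, 81 and 105 after siLARP4A, and 57 and 58 after siLARP4B. The siLARP4A libraries were above the other 4, by 0.77 against siControl (log2, 1.7-fold, SE 0.19, adjusted p = 0.0041 by edgeR). The call did not hold with DESeq2 (0.76, adjusted p = 0.1) or without MG63 siLARP4A replicate 2 (0.61, adjusted p = 0.086 by edgeR). PC3 gave 4 and 4 fragments in siControl, 13 and 9 after siLARP4A, and 4 and 6 after siLARP4B. There the larger value of 1.18 after siLARP4A (SE 0.52) did not pass (edgeR, adjusted p = 0.082).

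The ligand mix of PC3 changed after siLARP4B. AREG made up 84.2% and 83.0% of the summed FPKM of AREG, EREG, HBEGF and TGFA in the siControl libraries and 67.2% and 69.1% after siLARP4B. HBEGF went from 8.17% and 8.18% to 17.4% and 15.6%, and TGFA from 7.15% and 8.25% to 15.1% and 15.0%. The sum fell from 83.7 FPKM ± 0.632 (SD, n = 2) to 68.7 ± 1.29, and was 96.3 ± 1.66 after siLARP4A, where AREG kept 82.0% and 83.7%. In MG63 HBEGF was 98.0% to 98.8% of the sum in all 6 libraries, and the sum followed it, at 8.29 ± 0.118 in siControl, 15.6 ± 0.243 after siLARP4A and 7.78 ± 0.447 after siLARP4B.

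**Figure D3:**
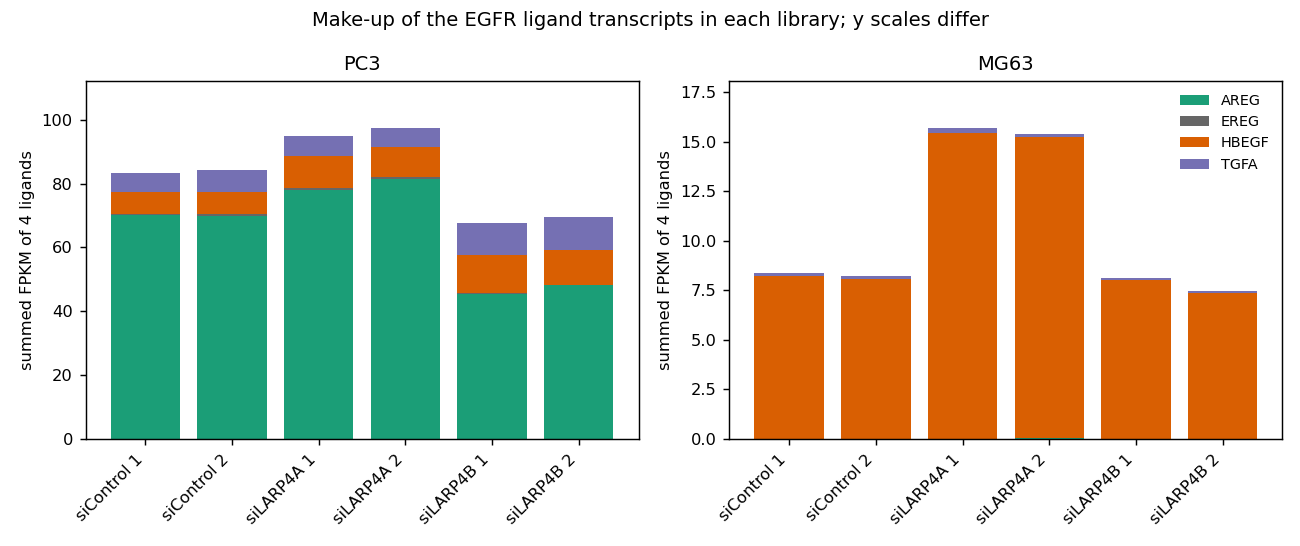
Summed FPKM of 4 EGFR ligands (y axis, from 0, different scales) in each library (x axis), stacked by gene. In PC3 the AREG block is shortest after siLARP4B while the HBEGF and TGFA blocks are taller than in siControl; in MG63 nearly the whole bar is HBEGF, at about 15 FPKM after siLARP4A.

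ERRFI1, the feedback inhibitor, fell after siLARP4B in both lines. In PC3 it was at 187 and 182 FPKM in siControl, 183 and 169 after siLARP4A, and 147 and 138 after siLARP4B. In MG63 it was at 27.7 and 26.0 in siControl, 32.4 and 32.8 after siLARP4A, and 16.0 and 15.7 after siLARP4B. The siLARP4B libraries were the lowest of each line without overlap, and in MG63 the siLARP4A libraries were the highest. After siLARP4B the log2 change was -0.41 (75.0% of control, SE 0.048, adjusted p = 3.1e-07 by edgeR) in PC3 and -0.74 (60.0% of control, SE 0.058, adjusted p = 2.4e-09) in MG63. After siLARP4A it was 0.30 in MG63 (SE 0.055, adjusted p = 2.7e-04 by edgeR) and -0.08 in PC3 (SE 0.048, adjusted p = 0.19). The 3 calls held in all 21 alternatives.

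Set directly against each other, the knockdowns differed for most of the family in PC3. There 7 of 9 genes differed, beside 54.2% of all tested genes: EGFR, AREG, EREG and ERRFI1 were higher after siLARP4A and ERBB2, ERBB3 and TGFA higher after siLARP4B. The differences (siLARP4A minus siLARP4B, log2) were 0.80 for AREG (SE 0.065, adjusted p = 2.0e-09 by edgeR), 1.38 for EREG (SE 0.29, adjusted p = 3.8e-04), -0.85 for ERBB3 and -0.70 for TGFA. HBEGF, raised by both, differed by -0.19 (SE 0.08, adjusted p = 0.056 by edgeR). It passed under 6 alternatives with values of -0.27 to -0.19, among them leaving out PC3 siLARP4A replicate 1 (-0.27, adjusted p = 0.025) or siLARP4B replicate 2 (-0.25, adjusted p = 0.049).

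In MG63 5 of 9 genes differed between the knockdowns, all higher after siLARP4A, beside 43.6% of all genes. The 9 include AREG and EREG, which had no usable ratio there. ERRFI1 differed by 1.04 (log2, SE 0.058, adjusted p = 5.4e-12 by edgeR), HBEGF by 0.99 (SE 0.081, adjusted p = 2.2e-09) and NRG1 by 0.78 (SE 0.19, adjusted p = 0.002). NRG1 did not pass with DESeq2 (0.77, adjusted p = 0.071). EGFR differed by 0.22 (adjusted p = 0.0089), a call lost without MG63 siLARP4A replicate 1 (0.17, adjusted p = 0.12 by edgeR) or siLARP4B replicate 1 (0.12, adjusted p = 0.19). TGFA differed by 1.17 (SE 0.4, adjusted p = 0.023), a call lost without siLARP4A replicate 1 (0.83, adjusted p = 0.25 by edgeR), siLARP4B replicate 1 (1.24, adjusted p = 0.075) or siLARP4B replicate 2 (1.10, adjusted p = 0.098), and with limma on log2(FPKM + 1) (0.15, adjusted p = 0.14). ERBB2 differed by 0.15 and did not pass (edgeR, adjusted p = 0.064), except with genes of at least 5 FPKM only (0.18, adjusted p = 0.019), without siLARP4A replicate 2 (0.22, adjusted p = 0.031) or without siLARP4B replicate 1 (0.20, adjusted p = 0.047).

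Whether a knockdown acted differently in the 2 lines was tested as an interaction. The knockdowns were deeper in PC3: after siLARP4A, LARP4 was at 12.5% of siControl there and 26.1% in MG63. After siLARP4B, LARP4B was at 17.9% in PC3 and 31.1% in MG63. The line and the depth of its knockdown cannot be told apart in these differences. For siLARP4B 5 of 9 genes differed, all with a higher value in PC3, beside 27.8% of all tested genes. HBEGF differed by 0.74 (PC3 minus MG63, log2, SE 0.12, adjusted p = 9.9e-05 by edgeR) and ERBB2 by 0.45 (SE 0.096, adjusted p = 0.0012). ERRFI1, which fell in both lines, differed by 0.32 (SE 0.076, adjusted p = 0.0027), the fall being larger in MG63. ERBB3 (1.34, SE 0.42) and TGFA (1.26, SE 0.45) passed as well (edgeR, adjusted p = 0.019 and 0.038), on few MG63 fragments. The ERBB3 call was lost without MG63 siControl replicate 1 (1.35, adjusted p = 0.068) or 2 (1.32, adjusted p = 0.078) or siLARP4B replicate 2 (0.95, adjusted p = 0.16). That of TGFA was lost with DESeq2 (1.29, adjusted p = 0.053), without PC3 siLARP4B replicate 2 (1.29, adjusted p = 0.051 by edgeR) and without any 1 of the 4 MG63 siControl and siLARP4B libraries (1.10 to 1.39, adjusted p by edgeR of 0.074 to 0.19). EGFR, at -0.16, did not pass (edgeR, adjusted p = 0.21) except without MG63 siLARP4B replicate 1 (-0.26, adjusted p = 0.045).

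For siLARP4A 2 of 9 genes differed between the lines, beside 11.4% of all genes. AREG and EREG again had no usable difference. ERRFI1 differed by -0.38 (SE 0.073, adjusted p = 0.0012 by edgeR) and HBEGF by -0.43 (SE 0.12, adjusted p = 0.021), each with the higher change in MG63. The HBEGF difference was lost with DESeq2 (-0.41, adjusted p = 0.1) and without any 1 of 7 of the 8 libraries compared, PC3 siLARP4A replicate 1 being the exception, with values of -0.45 to -0.32 and adjusted p by edgeR of 0.054 to 0.11. EGFR, at 0.14, did not pass (edgeR, adjusted p = 0.38) except without PC3 siLARP4A replicate 2 (0.29, adjusted p = 0.019).

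The remaining members of the family were low, apart from NRG2 and BTC. EGF, the founding ligand, had 44 and 38 fragments in PC3 siControl, 130 and 91 after siLARP4A, and 30 and 42 after siLARP4B. In MG63 it had 10 and 14 in siControl, 40 in both libraries after siLARP4A, and 10 in both after siLARP4B. The siLARP4A libraries were the highest of each line, and EGF rose by 1.17 (log2, SE 0.21, adjusted p = 1.3e-04 by edgeR) in PC3 and by 1.79 (SE 0.32, adjusted p = 2.2e-04) in MG63, in all 20 alternatives that tested it.

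EPGN (epigen) had 15 and 23 fragments in PC3 siControl, 64 and 41 after siLARP4A, and 13 and 6 after siLARP4B, and at most 1 in any MG63 library. It rose by 1.20 after siLARP4A in PC3 (SE 0.31, adjusted p = 0.0047 by edgeR), a call lost without PC3 siControl replicate 1 (1.01, adjusted p = 0.06). BTC (betacellulin), at 2.46 and 2.12 FPKM in PC3 siControl and 1.50 and 1.17 after siLARP4A, fell by 0.77 (SE 0.19, adjusted p = 0.0026 by edgeR). It did not pass with DESeq2 (adjusted p = 0.067) or without PC3 siControl replicate 1 (-0.62, adjusted p = 0.05 by edgeR).

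NRG2, a neuregulin at 7.39 and 6.80 FPKM in PC3 siControl and 5.79 and 4.89 in MG63, fell after siLARP4A by 0.43 in PC3 (adjusted p = 0.0011 by edgeR) and by 0.44 in MG63 (adjusted p = 0.0034). The MG63 call was lost without siControl replicate 1 (-0.32, adjusted p = 0.084) or siLARP4A replicate 2 (-0.38, adjusted p = 0.051). NRG4, with 14 to 47 fragments a library in PC3, rose in PC3 after siLARP4A (0.85, adjusted p = 0.036 by edgeR) and siLARP4B (0.83, adjusted p = 0.039). Those calls were lost with DESeq2 (adjusted p = 0.19 for each), without PC3 siControl replicate 2 (0.57, adjusted p = 0.28, and 0.55, adjusted p = 0.27, by edgeR), without siLARP4A replicate 1 (0.70, adjusted p = 0.21) and without siLARP4B replicate 1 (0.79, adjusted p = 0.15) or 2 (0.93, adjusted p = 0.069). ERBB4 had 57 fragments over all 12 libraries and NRG3 had 0; neither was tested.

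Of 8 tested genes that act in ligand release, 2 rose and 3 fell in PC3 after siLARP4B, 62.5% beside 44.7% of all tested genes. In MG63 3 fell and 0 rose, 37.5% beside 35.1%, a share near that of all genes. Here and in the lists below, the share over all tested genes includes weakly expressed genes and was not matched for level. The median log2 changes were -0.04 and -0.08, against 0.00 over all genes in each line. ADAM10, the protease that cuts EGF and BTC, went from a mean of 6.28 to 2.88 FPKM in PC3 and from 19.0 to 11.1 in MG63, log2 changes of -1.17 (SE 0.058, adjusted p = 4.3e-13 by edgeR) and -0.75 (SE 0.048, adjusted p = 1.2e-10). FRMD8, which stabilises the complex of ADAM17 with the iRhom proteins, fell by 0.82 (log2) in PC3 and 0.54 in MG63. RHBDF1, which encodes an iRhom, rose by 0.68 in PC3. ADAM12 fell by 0.17 in MG63 (edgeR, adjusted p = 0.036), a call lost under 6 alternatives, among them leaving out either MG63 siControl library (adjusted p = 0.12) or siLARP4B replicate 1 (adjusted p = 0.17). ADAM17, the main protease of AREG, EREG, HBEGF and TGFA, was at 7.80 and 7.90 FPKM in PC3 (siControl and siLARP4B) and 26.3 and 27.8 in MG63.

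After siLARP4A 3 of these 8 rose and 1 fell in PC3, 50% beside 36.0% of all tested genes. With genes of at least 5 FPKM only, 4 of 8 were called there, close to the share of all such genes. In MG63 2 rose and 1 fell, 37.5% beside 26.4% (median log2 change 0.12 and 0.06), with no share at that level given. ADAM10 rose by 0.27 in PC3 and ADAM15 fell by 0.19 in PC3 and by 0.22 in MG63, the PC3 fall of ADAM15 being lost without PC3 siControl replicate 1 (-0.13, adjusted p = 0.062 by edgeR). ADAM17 rose by 0.22 in PC3, lost without siControl replicate 2 (adjusted p = 0.055) or siLARP4A replicate 1 (0.19, adjusted p = 0.06). ADAM12 rose by 0.38 in MG63, and FRMD8 by 0.29, the latter lost without MG63 siControl replicate 2 (0.23, adjusted p = 0.077).

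Downstream of the receptors, 26 adaptors and signal transducers were tested. After siLARP4A 9 rose and 5 fell in PC3 (53.8% beside 36.0% of all tested genes), and 9 rose and 3 fell in MG63 (46.2% beside 26.4%). With genes of at least 5 FPKM only, 12 of 23 were called in PC3 after siLARP4A, close to the share of all such genes. The higher share in PC3 is therefore not read as an excess. No such share is given for MG63, and its higher share is not read as an excess either. After siLARP4B 3 rose and 8 fell in PC3 (42.3% beside 44.7%), and 5 rose and 3 fell in MG63 (30.8% beside 35.1%), shares no higher than over all genes. Their median log2 changes were 0.08, 0.09, -0.05 and 0.02 in that order. PTPN11 (the phosphatase SHP2, needed for RAS activation) fell by 0.96 in PC3 and by 0.52 in MG63 after siLARP4A, and by 0.47 in PC3 after siLARP4B. NRAS fell by 0.79 in PC3 and by 0.41 in MG63 after siLARP4B. The adaptor GAB1 rose by 0.98 and GAB2 by 1.11 in MG63 after siLARP4A, from 0.223 and 0.122 FPKM. The GAB2 call was lost without MG63 siControl replicate 1 (0.70, adjusted p = 0.18 by edgeR), without siLARP4A replicate 2 (0.99, adjusted p = 0.094) and with limma on log2(FPKM + 1) (0.17, adjusted p = 0.083).

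Of 25 tested genes of receptor uptake, turnover and inhibition, 9 were higher and 6 lower in PC3 after siLARP4A (60.0% beside 36.0% of all tested genes), and 9 higher and 3 lower in MG63 (48% beside 26.4%). With genes of at least 5 FPKM only, 16 of 22 were called in PC3 after siLARP4A, above the share of all such genes. No such share is given for MG63, where the higher share is not read as an excess. After siLARP4B 4 were higher and 9 lower in PC3 (52.0% beside 44.7%), and 10 higher and 1 lower in MG63 (44.0% beside 35.1%). Their medians were 0.08, 0.05, -0.07 and 0.11. The ubiquitin ligases NEDD4 and CBLB rose after siLARP4A, NEDD4 by 0.85 in PC3 and 1.18 in MG63 and CBLB by 0.81 and 1.16 (edgeR, adjusted p of at most 7.2e-07 in all 4). NEDD4 rose less after siLARP4B, by 0.32 in PC3 and 0.47 in MG63 (edgeR, adjusted p = 0.011 and 2.9e-04). CBLB did not rise after siLARP4B in either line. PTPN1 and EPS15 rose by 0.57 and 0.43 in MG63 after siLARP4B. LRIG1, a membrane inhibitor of the receptors, rose by 0.71 in MG63 after siLARP4A, and was at 0.0761 FPKM in PC3 siControl. After siLARP4B in PC3, CBL, which tags active EGFR for breakdown, fell by 0.58 and SPRED1, an inhibitor of RAS signalling, fell by 0.72. RNF41, a ligase that acts on ERBB3, rose there by 0.49.

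**Figure D4:**
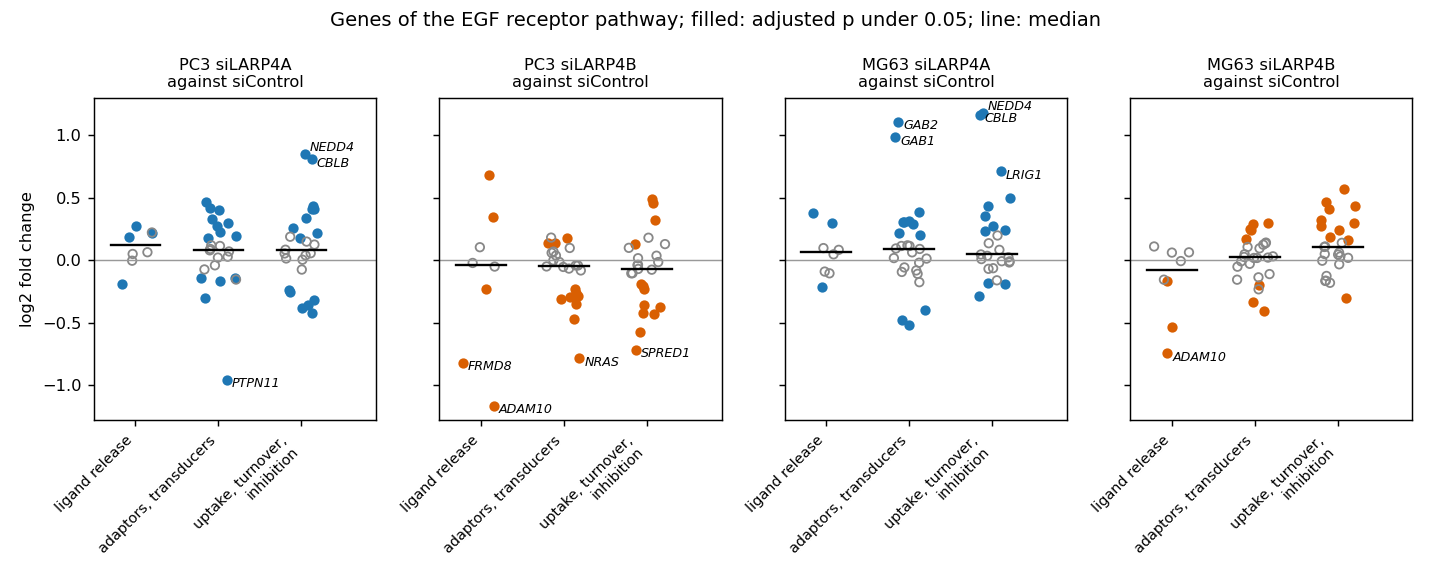
Log2 fold change against siControl (y axis) of the tested pathway genes in 3 lists (x axis) in each comparison; filled points have an adjusted p under 0.05, black lines are list medians, and names mark called changes of 0.7 or more. Genes with at most 3 fragments in each compared group are left out; ADAM10 is the lowest ligand release gene after siLARP4B in both lines, and NEDD4 and CBLB lead the turnover list after siLARP4A in both.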

How the data were processed

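The 9 genes and all gene lists were chosen with earlier results of these data known. The authors deposited 1 table per library, whose columns, per the file headers, are fragment counts, FPM and FPKM for 86394 transcript models. FPM was not used further. A fragment in an exon that models share is counted in each of them, so 1 model per gene was kept. The submitters' processing notes name FastQC, HISAT2, featureCounts, edgeR and hg38; versions and strand handling are not given in the sources used here. Coordinates are the tables' own. Symbols at more than 1 locus (1748) were left out. The test was run on the deposited counts in edgeR 4.0.16 under R 4.3.3 (TMM, filterByExpr, quasi-likelihood F-test, a mean per group over 12 libraries, two-sided, Benjamini-Hochberg within each of 9 comparisons). With 2 libraries a group, the spread is borrowed largely from other genes, and p-values measure the spread between these samples only. The procedure was tried on simulated counts with the same spread for all genes and groups, and with changes placed only in genes with more fragments. That trial does not bear on the uneven groups or on calls from few fragments. Alternatives used DESeq2 1.42.0, limma 3.58.1 on log2(FPKM + 1), other filters, models and scaling, a deduplicated table of 1 library, and each library left out. Always named are the 9 genes, LARP4, LARP4B and the other EGF family members. From each pathway list, at most 3 genes per comparison with the largest called change are named, in places with their values in other comparisons.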

Additional observations from a re-analysis of the deposited data

Results flagged for a closer look

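The effect of a knockdown differed between PC3 and MG63, by the interaction term in edgeR, for 7 gene and siRNA combinations. All values are PC3 minus MG63 on the log2 scale. For siLARP4B they were 0.45 for ERBB2, 1.34 for ERBB3, 0.74 for HBEGF, 1.26 for TGFA and 0.32 for ERRFI1. ERRFI1 fell in both lines and differed in size, whereas ERBB2 and HBEGF rose in PC3 and did not pass in MG63. For siLARP4A they were -0.43 for HBEGF, which rose in both lines, and -0.38 for ERRFI1, which rose in MG63 and did not pass in PC3. ERBB3 and TGFA had at most 19 fragments in any MG63 library. Both knockdowns were deeper in PC3 than in MG63, so line and depth of knockdown cannot be told apart.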

How the results depend on the processing

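Over 69 results for the 9 genes, 42 of them called, 1403 alternative values were computed. Of these, 1341 stayed on the same side of the threshold and, if called, kept their direction. The others lost the call (49), gained one (13) or reversed a call (0). Results that were not called could change sign, such as TGFA in PC3 after siLARP4A (-0.13 to 0.07). Of the 42 calls, 31 held in all alternatives. The number of the 9 genes called fell with DESeq2 from 4 to 2 for siLARP4A in MG63 and from 3 to 2 for siLARP4A in PC3. For the line difference of siLARP4A it fell from 2 to 1. DESeq2 also lost EREG for siLARP4B in PC3, NRG1 for siLARP4A against siLARP4B in MG63, and TGFA for the line difference of siLARP4B. Leaving out 1 library in turn gave 2 to 3 for siLARP4A and 6 to 8 for siLARP4B in PC3, 3 to 4 and 1 to 2 in MG63, 7 to 8 and 3 to 6 for siLARP4A against siLARP4B in PC3 and MG63, 1 to 2 and 3 to 5 for the line difference of siLARP4A and siLARP4B, and 9 for the lines. The extra siLARP4B call in MG63 was EGFR, without MG63 siLARP4B replicate 2. The cause of these changes, beyond the fewer libraries, was not tested.

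Same-numbered replicates did not deviate together (r of -0.03 to 0.05 across genes), so the numbers name libraries only. With the replicate number as a block, the count for siLARP4A in MG63 went from 4 to 3, ERBB2 being lost (0.18, adjusted p = 0.051), and no other count of the 9 genes changed. Over all genes, 4137 were called for siLARP4A in MG63, but 2695 to 2703 without MG63 siControl replicate 1 or 2 or siLARP4A replicate 1. For its line difference 1784 were called, but 1048 to 1176 without PC3 siControl replicate 1 or any 1 MG63 siControl or siLARP4A library. Between the lines 12819 were called, and 8523 of the fewer genes with a mean of at least 5 FPKM. Depth limits EREG and NRG1 in both lines and ERBB3 and TGFA in MG63.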

Other observations

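Other genes of the pathway also differed widely between the lines in siControl. STAT3, which active EGFR can phosphorylate, was at a mean of 35.3 FPKM in MG63 siControl and 0.00566 in PC3 siControl. STAT5B was at 8.49 FPKM in MG63 siControl and is listed at 0 in all 3 PC3 groups. The scaffold GAB2 went the other way, at 3.19 FPKM in PC3 and 0.122 in MG63, and LRIG1 was at 0.0761 FPKM in PC3 and 4.47 in MG63. BTC was at 2.29 FPKM in PC3 siControl and 0.0812 in MG63 siControl, with at most 7 fragments in any MG63 library. STAT3, STAT5B and BTC each passed the filter on low counts through 1 line alone, so they had to differ.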
